A study of Mus musculus with 3 samples.

Results

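The genes for the embryonic and adult globin chains, with 2 further erythroid genes, Alas2 and Slc4a1, were followed in dorsal root ganglion (DRG) cells sorted from mouse embryos. The 9 genes were chosen by symbol, out of 41388 measured genes. They are Hba-x, Hba-a1 and Hba-a2 of the alpha-like cluster, Hbb-y, Hbb-bh1, Hbb-bs and Hbb-bt of the beta-like cluster, Alas2 and Slc4a1. Each of the 9 symbols was matched to 1 Ensembl identifier of the deposited tables.

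The study profiled EGFP-labelled cells that were sorted by flow cytometry from DRG, the clusters of sensory neurons beside the spinal cord, at 12.5 days post coitum. The reporter marks cells that express Ret, a receptor tyrosine kinase through which GDNF and related ligands signal. All embryos were C57BL/6, of both sexes, and all carried the reporter. The sample labels give the genotype as Tg(Ret-EGFP)SJ/, whereas the series text describes heterozygotes with EGFP at the Ret locus itself, and this difference could not be settled. The ganglia came from spinal levels between T11 and S1. Library D pooled 60 ganglia from 3 embryos, library B 340 ganglia from 17 embryos (10 male and 7 female), and library C 300 ganglia from 15 embryos. The embryos of each library came from different mothers, per the labels, which give the number of each sex for B alone. There is 1 group and no second condition. The pools differ in size by their labels, and p-values measure only the spread between these pools. Total counts were 20966139 in D, 18072199 in B and 11666241 in C.

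Haemoglobin is built from alpha-like and beta-like globin chains around haem. In the mouse, the first red cells arise in the yolk sac, circulate as large nucleated cells and make embryonic chains: zeta from Hba-x, and the epsilon-like and gamma-like chains from Hbb-y and Hbb-bh1. Red cells formed later in the fetal liver make mainly adult chains, from Hba-a1 and Hba-a2 and from Hbb-bs and Hbb-bt. Within each cluster the embryonic genes lie upstream of the adult genes. Primitive red cells are known to move from Hbb-bh1 to Hbb-y and from zeta towards adult alpha chains as they mature.

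The coding sequences show how far the chains can be told apart by sequencing. The first 60 coding bases of each globin, from the GENCODE M21 transcripts (GRCm38), are printed from 5′ to 3′ to show this. Capitals mark the bases of Hba-x that differ from Hba-a1, and the bases of Hbb-y and Hbb-bh1 that differ from Hbb-bt.
Hba-x: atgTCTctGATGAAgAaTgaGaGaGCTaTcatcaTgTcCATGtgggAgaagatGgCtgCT
Hba-a1: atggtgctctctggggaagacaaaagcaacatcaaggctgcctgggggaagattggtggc
Hba-a2: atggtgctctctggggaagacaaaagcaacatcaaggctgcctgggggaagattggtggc
Hbb-y: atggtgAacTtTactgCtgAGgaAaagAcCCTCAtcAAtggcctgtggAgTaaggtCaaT
Hbb-bh1: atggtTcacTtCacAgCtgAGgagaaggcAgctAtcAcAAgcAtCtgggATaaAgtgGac
Hbb-bs: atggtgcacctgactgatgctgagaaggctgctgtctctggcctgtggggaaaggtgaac
Hbb-bt: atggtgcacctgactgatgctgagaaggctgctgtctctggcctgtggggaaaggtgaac

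Hba-x differed from Hba-a1 at 28 of these 60 bases. Hbb-y differed from Hbb-bt at 19 bases and Hbb-bh1 at 18. The embryonic genes are therefore distinct in sequence from the adult ones, while the adult copies are not distinct from each other. Over the whole coding sequence, Hba-a1 and Hba-a2 differed at 1 of 426 bases, and Hbb-bs and Hbb-bt at 1 of 441 bases. Hba-x shared 61.7% of its coding bases with Hba-a1, and Hbb-y shared 76.4% with Hbb-bh1. A stretch of 50 bases was taken as a measure of what a short read can resolve. Of such stretches in the transcript, 67.5% in Hba-a1, 86.9% in Hba-a2, 65.8% in Hbb-bs and 58.3% in Hbb-bt also occurred in another of the globins. None did in Hba-x, Hbb-y or Hbb-bh1. How the authors' counting treated reads that match more than 1 place is not given in the sources used here, so the level of each adult copy, and the split between copies, is uncertain.

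The alpha-like cluster lies on the plus strand of chromosome 11 (GRCm38, coordinates from the deposited tables). Hba-x, identifier ENSMUSG00000055609, spans chr11:32276400-32278116 in 4 exons. Hba-a1 (ENSMUSG00000069919, chr11:32283511-32284465) and Hba-a2 (ENSMUSG00000069917, chr11:32296489-32297298) follow downstream with 3 exons each. The beta-like cluster lies on the minus strand of chromosome 7, so the embryonic genes have the highest coordinates. Hbb-y (ENSMUSG00000052187) spans chr7:103851745-103853240 and Hbb-bh1 (ENSMUSG00000052217) chr7:103841636-103843164. Hbb-bs (ENSMUSG00000052305) spans chr7:103826534-103828096 and Hbb-bt (ENSMUSG00000073940) chr7:103812524-103813996, and all 4 beta-like genes have 3 exons. Alas2 (ENSMUSG00000025270) lies at chrX:150547375-150570638 on the plus strand, with exon bases shared with Apex2 and Mir3620. Slc4a1 (ENSMUSG00000006574) lies at chr11:102348824-102366203 on the minus strand. Among the 9 genes, Alas2 was the only one whose exons overlapped another gene, and without strand its reads cannot be separated from those of its neighbours.

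Upstream sequence was taken from RefSeq (GRCm38.p6), where 7 of the 9 genes were matched. The 130 bases before each start were searched on both strands for 4 short motifs of erythroid and core promoters, each named in turn with its count. CACCC, the core of the motif bound by Klf1, occurred in 7 of 7, against 33.2% of all 27025 promoters in the table. CCAAT occurred in 5 of 7, against 23.2%, and TATAA in 5 of 7, against 13.2%. GATAA, a form of the motif bound by GATA factors, occurred in 2 of 7, Hba-x and Alas2, against 11.7% of all promoters. These matches describe the letters only. The deposited exons start further upstream than the RefSeq start: they cover the whole window in Hba-x, Hba-a1 and Hbb-bs and part of it in the other 4 genes, so the counts describe bases before the RefSeq start only. What lies outside the deposited exons is shown for an adult alpha, an embryonic beta and an adult beta gene, with the motifs in capitals and each read along the gene's own strand.
Hba-a2, chr11:32296362-32296488, plus strand: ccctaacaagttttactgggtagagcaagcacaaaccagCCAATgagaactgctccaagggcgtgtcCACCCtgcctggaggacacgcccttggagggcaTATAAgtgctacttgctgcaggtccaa
Hbb-y, chr7:103853241-103853337, minus strand: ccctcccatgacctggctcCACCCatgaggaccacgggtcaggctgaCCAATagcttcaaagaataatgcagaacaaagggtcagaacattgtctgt
Hbb-bt, chr7:103813997-103814053, minus strand: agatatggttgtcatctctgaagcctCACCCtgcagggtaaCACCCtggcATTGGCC

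The embryonic and the adult gene of the beta-like cluster both hold CACCC, and Hbb-bt holds it 2 times. In Hbb-bt the capitals at the end mark CCAAT on the other strand, followed by the opening letters of a further CCAAT that runs past the stretch shown.

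Embryonic globins led in every library. Levels are given in TPM, a unit in which all genes of a library sum to the same total, computed here from the deposited counts and gene lengths. Hbb-y, the epsilon-like embryonic chain, stood at 302 TPM in D, 2107 in B and 1146 in C. It was the highest of the 9 genes in each library, and ranked 604th of all genes in D, 52nd in B and 103rd in C. Hba-x, the zeta chain, stood at 50.2 TPM in D, 381 in B and 110 in C. It was the only embryonic alpha-like gene among the 9, and came after Hbb-y in each library. Hbb-bh1, the gamma-like embryonic chain, stood at 35.3 TPM in D, 180 in B and 79.8 in C. For all 3 embryonic genes B was highest, C intermediate and D lowest.

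The adult globins followed 2 patterns, and their summed level was below that of the embryonic genes in each library. Hba-a1 stood at 7.19 TPM in D, 71.3 in B and 37.0 in C, and Hba-a2 at 4.08 TPM in D, 50.4 in B and 26.5 in C. Both adult alpha genes thus had the same order of libraries as the embryonic genes. Hbb-bs stood at 2.10 TPM in D, 14.5 in B and 77.7 in C. Hbb-bt stood at 6.27 TPM in D, 56.0 in B and 96.8 in C. The adult beta genes were therefore highest in C, while the other 7 genes were highest in B. In C, Hbb-bt was above the embryonic Hbb-bh1, and Hbb-bs was close below it.

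Alas2, the erythroid form of the enzyme that opens haem synthesis, and Slc4a1, the band 3 anion exchanger of the red cell membrane, were close to the limit of detection. Alas2 had 11 counts in D, 64 in B and 34 in C, or 0.59, 2.95 and 2.36 TPM in D, B and C. Slc4a1 had 0 counts in D, 19 in B and 6 in C. The 0 in D allows a true value of up to 3 counts, or 0.143 CPM (counts scaled to the library total), so a lower level there was not detectable at this depth. This limit and the intervals given further on account for counting error alone, since amplified reads without molecular tags do not each stand for a molecule.

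**Figure D1:**
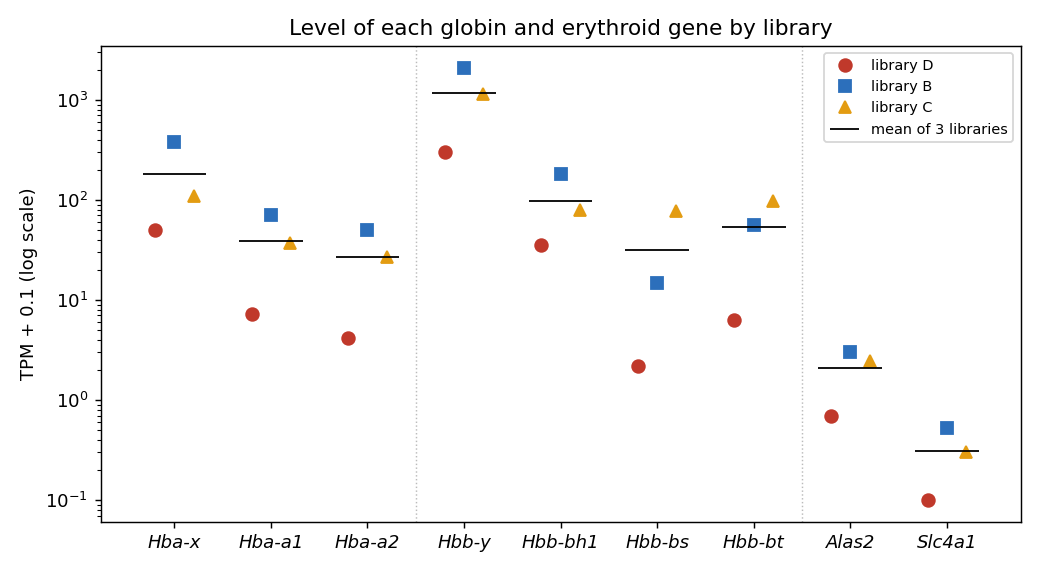
Level of each of the 9 genes in libraries D, B and C on a log axis of TPM + 0.1, with the mean over the 3 libraries as a bar. Hbb-y is highest in each library, from 302 TPM in D to 2107 TPM in B, and D is the lowest library for all 9 genes.

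Ranked by mean TPM over the 3 libraries, the order was Hbb-y at 1185 ± 903, Hba-x at 181 ± 176, Hbb-bh1 at 98.5 ± 74.2, Hbb-bt at 53.0 ± 45.3 and Hba-a1 at 38.5 ± 32.1 TPM (SD, n = 3). Hbb-bs at 31.4 ± 40.5, Hba-a2 at 27.0 ± 23.1, Alas2 at 1.97 ± 1.23 and Slc4a1 at 0.21 ± 0.22 TPM followed. The SD was of the size of the mean for most of these genes, as their levels differed several-fold between libraries. For Hbb-bs it was above the mean, with C rather than B as the highest library. Within libraries, Hbb-y exceeded Hba-x in 3 of 3, Hba-x exceeded Hbb-bh1 in 3 of 3, Hba-a2 exceeded Alas2 in 3 of 3 and Alas2 exceeded Slc4a1 in 3 of 3. The neighbours from Hbb-bh1 to Hba-a2 changed places between libraries and cannot be ordered. At 1 TPM or more in every library, 7 of the 9 genes were detected, all of them globins, against 28.7% of all genes in the tables. Alas2 missed this limit in D, and Slc4a1 in each library.

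The 7 globins together had 2183 counts in D, 18073 in B and 6551 in C. Their summed level was 407 TPM in D, 2860 in B and 1574 in C. The embryonic genes made up 388 TPM of it in D, 2668 in B and 1336 in C, and the adult genes 19.7 TPM in D, 192 in B and 238 in C. Embryonic transcripts were therefore 95.2% of the globin level in D, 93.3% in B and 84.9% in C. In bulk samples of this kind, a lower level from fewer cells of a type and from less RNA per cell cannot be told apart.

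Ratios within a library do not depend on its depth. The log2 ratio of the embryonic over the adult level was 4.30 in D, 3.80 in B and 2.49 in C, a mean of 3.53 ± 0.94 (SD, n = 3). Embryonic exceeded adult in 3 of 3 libraries, by 19.7-fold in D, 13.9-fold in B and 5.61-fold in C. An exact sign-flip test, two-sided, gave p = 0.25 for each of the 5 ratios tested, which is the smallest p that 3 libraries allow, so none could pass 0.05.

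The excess of embryonic chains was larger in the beta-like than in the alpha-like cluster in each library. For Hbb-y and Hbb-bh1 over Hbb-bs and Hbb-bt, the log2 ratio was 5.33 in D, 5.02 in B and 2.81 in C. For Hba-x over Hba-a1 and Hba-a2, it was 2.15 in D, 1.65 in B and 0.80 in C. The means were 4.39 ± 1.37 for the beta-like and 1.53 ± 0.69 for the alpha-like cluster (SD, n = 3 each). The alpha-like direction rests on the counting of shared reads: with lengths cut to the 50-base stretches found in no other globin of the set, the mean alpha-like ratio was -0.81, the adult genes then being higher, and the beta-like ratio was 2.93.

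Alpha-like transcripts were fewer than beta-like ones in 3 of 3 libraries. The log2 ratio of their summed levels was -2.49 in D, -2.23 in B and -3.01 in C, a mean of -2.58 ± 0.40 (SD, n = 3). The chains pair in equal numbers in haemoglobin, but the values here are transcript levels and depend on the reads assigned to Hba-a1 and Hba-a2. Alas2 and Slc4a1 together stood at a log2 ratio of -9.42 to the summed globins in D, -9.72 in B and -9.26 in C. This ratio varied little between libraries, with a mean of -9.47 ± 0.23 (SD, n = 3). In D it rested on 11 counts of Alas2 and 0 of Slc4a1. At such counts the small spread cannot show that the 2 genes follow the globins.

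The makeup of the globin pool was compared as shares of globin counts, with exact Clopper-Pearson 95% intervals. Hbb-y held 70.5% of globin counts in D (68.5 to 72.4%), 69.5% in B (68.8 to 70.2%) and 69.3% in C (68.2 to 70.4%). Its share was nearly the same in the 3 libraries although its level differed several-fold. Hba-x held 16.6% in D (15.1 to 18.3%), 17.8% in B (17.3 to 18.4%) and 9.46% in C (8.77 to 10.2%). Hbb-bh1 held 7.65% in D (6.57 to 8.85%), 5.52% in B (5.19 to 5.87%) and 4.49% in C (4.00 to 5.02%). The intervals of Hbb-bh1 did not overlap between any pair of libraries, and those of Hba-x were apart only for C.

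Library C differed in the adult beta genes. Hbb-bs held 0.641% of globin counts in D (0.351 to 1.07%), 0.625% in B (0.516 to 0.751%) and 6.14% in C (5.57 to 6.75%). Hbb-bt held 1.56% in D (1.08 to 2.17%), 1.96% in B (1.77 to 2.18%) and 6.23% in C (5.65 to 6.84%). For both genes the intervals of D and B overlapped and that of C lay above them. The shares of Hba-a1, at 2.06% in D, 2.89% in B and 2.75% in C, had overlapping intervals in all 3 libraries. Hba-a2 held 0.962% in D (0.596 to 1.47%), 1.68% in B (1.49 to 1.87%) and 1.62% in C (1.33 to 1.95%), and its interval in D lay below that in B and overlapped that in C.

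**Figure D2:**
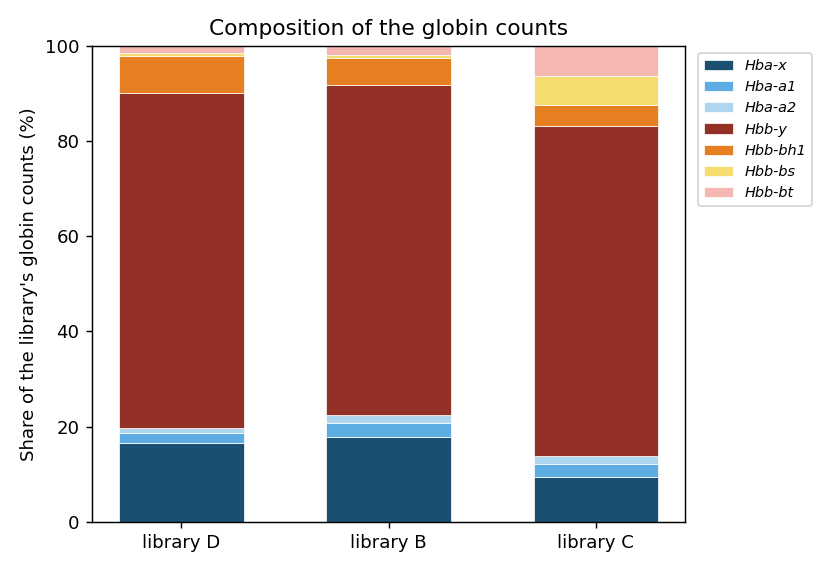
Share of each globin among the globin counts of libraries D, B and C, in percent, with bars stacked to the whole. Hbb-y fills 70.5% in D, 69.5% in B and 69.3% in C, and the adult beta genes Hbb-bs and Hbb-bt are visible mainly in C.

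Measured within each cluster, adult transcripts were 15.4% of alpha-like counts in D (12.1 to 19.2%), 20.4% in B (19.1 to 21.6%) and 31.6% in C (28.5 to 34.7%). In the beta-like cluster they were 2.74% in D (2.02 to 3.61%), 3.34% in B (3.05 to 3.65%) and 14.3% in C (13.4 to 15.3%). The adult share was thus higher among alpha-like than among beta-like counts in each library. It was highest in C in both clusters, beyond counting error. The study has no other pool with which to tell the spread of such shares between embryos from a difference of library C.

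**Figure D3:**
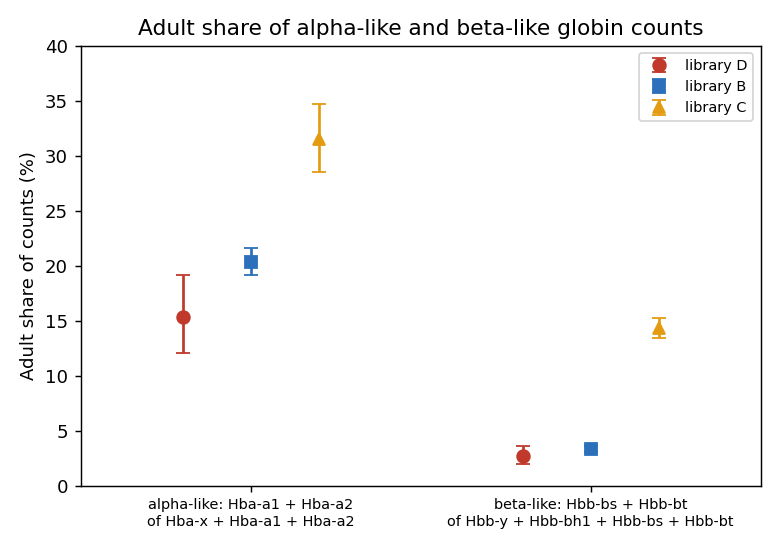
Adult share of the alpha-like and of the beta-like globin counts in libraries D, B and C, in percent, with 95% Clopper-Pearson intervals for counting error only. The adult share is highest in C in both clusters, at 31.6% of alpha-like and 14.3% of beta-like counts.

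Pairs of genes within a stage also differed between libraries. Hbb-bs was 29.2% of the adult beta-like counts in D (17.0 to 44.1%), 24.1% in B (20.3 to 28.3%) and 49.6% in C (46.1 to 53.1%). The near-equal counts of the adult beta copies were seen in C, where Hbb-bs had 402 counts and Hbb-bt 408. In D the counts were 14 for Hbb-bs and 34 for Hbb-bt, and in B 113 and 355. Hbb-bh1 was 9.79% of the embryonic beta-like counts in D (8.42 to 11.3%), 7.36% in B (6.93 to 7.81%) and 6.08% in C (5.42 to 6.79%). Hbb-bh1, the earlier of the embryonic beta chains, thus had its highest share in D and its lowest in C, in the reverse order to the adult shares. Hba-a1 was 68.2% of the adult alpha-like counts in D (55.6 to 79.1%), 63.3% in B (59.9 to 66.6%) and 62.9% in C (57.1 to 68.5%), with overlapping intervals.

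All 9 genes were lowest in D, the pool of 3 embryos, where 31.6% of the genes tested had their lowest CPM. The summed globins were 9.60-fold lower in D than in B and 5.39-fold lower in D than in C in CPM. In TPM the embryonic genes were 6.88-fold lower in D than in B and 3.45-fold lower than in C, and the adult genes 9.78-fold and 12.1-fold lower. Library D had the highest total count of the 3 libraries.

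Library D was set against B and C over all genes with edgeR's quasi-likelihood test and Benjamini-Hochberg adjustment, a fit with 1 residual degree of freedom in which the lone library is assumed to vary like the others. None of the 9 genes passed an adjusted p of 0.05, and 0% of all 15727 genes tested did. All 9 had an unadjusted p under 0.05 and were lower in D, where 8.22% of all genes were. With DESeq2, 7 of the 7 members that received an adjusted p, the 7 globins, were called lower in D, against 2.43% of all genes with one, while Alas2 and Slc4a1 received none. In edgeR without a filter on low counts, 7 of the 9 were called lower in D, against 2.55% of 23553 genes. The calls thus depend on the tool and on the filter. The median log2 difference was -3.60 over the 9 genes and -0.02 over all genes tested.

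In the fit against B and C together, the embryonic genes had smaller differences than the adult beta genes. Against B alone this order did not hold, with Hbb-bs 9.36-fold lower in D, Hbb-y 9.47-fold and Hba-x 10.3-fold. Hbb-y had a log2 difference of -3.12 ± 0.56 (D over B and C, approximate SE), with an adjusted p of 0.17 in edgeR and 0.00026 in DESeq2. For Hba-x it was -2.97 ± 0.85 (adjusted p 0.20 in edgeR, 0.0061 in DESeq2). For Hbb-bh1 it was -2.57 ± 0.69 (adjusted p 0.20 in edgeR, 0.014 in DESeq2). Among the adult genes the log2 difference was -3.60 ± 0.71 for Hba-a1, -3.91 ± 0.78 for Hba-a2, -5.17 ± 1.32 for Hbb-bs and -4.31 ± 0.73 for Hbb-bt. These had adjusted p-values of 0.17 to 0.20 in edgeR and of 0.00055 or less in DESeq2. The difference between the embryonic and the adult genes was not tested.

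The size of a difference depended on which library D was set against. Hba-x was 10.3-fold lower in D than in B and 3.07-fold lower in D than in C. Hbb-bs was 9.36-fold lower in D than in B and 51.6-fold lower in D than in C. Alas2 was 6.75-fold lower in D than in B and 5.55-fold lower in D than in C, and its fitted log2 difference was -2.84 ± 0.87 (edgeR adjusted p 0.21). Slc4a1, with no count in D, was at least 7.35-fold lower in D than in B and at least 3.59-fold lower than in C, with D set at the floor of 3 counts per library (edgeR adjusted p 0.21).

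**Figure D4:**
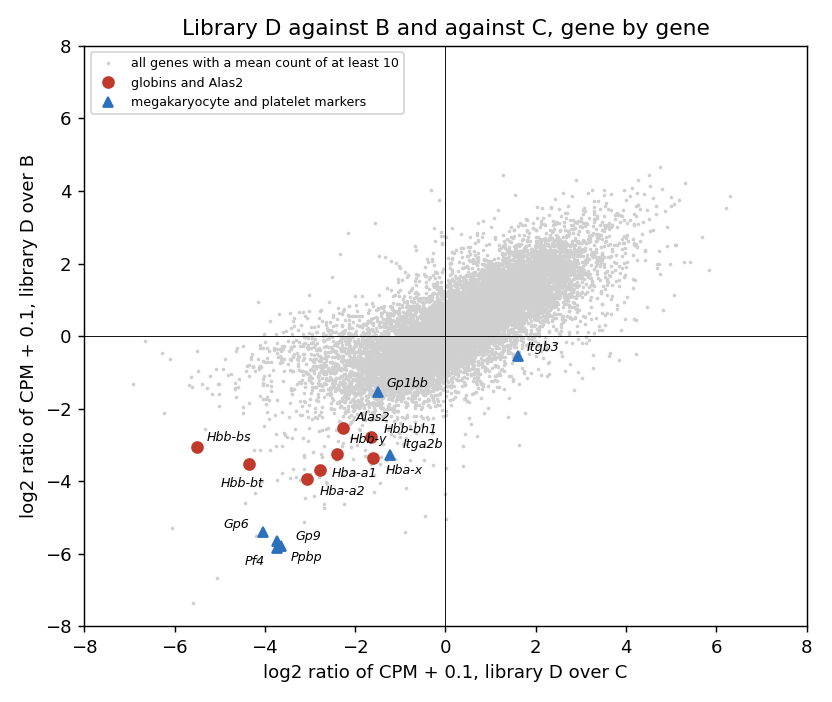
Each point is a gene whose count averaged at least 10, placed by its log2 ratio of CPM + 0.1 for D over C and for D over B, with the globins and Alas2 as circles and the megakaryocyte and platelet markers as triangles. The globins and Alas2 lie in the lower left, below 0 on both axes, with Hbb-bs and Hbb-bt displaced to the left, away from C.

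When B was set against the other libraries, none of the 9 genes passed in edgeR, and 0% of all genes tested did, although 7 of the 9 were highest in B. Over all genes, 174 had an unadjusted p under 0.05 in that edgeR fit and DESeq2 called 1. When C was set against D and B, 1 of the 9 genes passed, against 0.782% of all genes tested. That gene was Hbb-bs, with a log2 difference of 3.39 ± 0.90 and an edgeR adjusted p of 0.028, which DESeq2 did not call (adjusted p 0.15). Hbb-bt had a log2 difference of 1.79 ± 0.88 and an edgeR adjusted p of 0.68. The 3 embryonic genes differed in C by -0.81 ± 0.94 for Hba-x, 0.09 ± 0.99 for Hbb-y and -0.25 ± 0.91 for Hbb-bh1 on the log2 scale, within their errors. These comparisons reuse the same 3 libraries and are not independent of each other.

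Transcript base composition moved with library C. The 119 genes called higher in C by edgeR had a median GC content of 56.4%, against 49.6% over all genes tested. Their median length was 1800 bases, and that of all genes tested 3509 bases. Hbb-bs has 51.3% GC and Hbb-bt 50.8%, while Hbb-y has 48.8%, Hbb-bh1 46.8% and Hba-x 55.7%. Hba-a1 has 57.2% GC and Hba-a2 56.9%. The part of base composition in the adult beta values of C was not tested.

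Other red cell genes were set beside the globins. Of 9 erythroid markers in the tables, none was detected at 1 TPM in every library, and their summed level was 1.29 TPM in D, 10.8 in B and 7.39 in C. In D, 5 of the 9 were at 0, among them Gata1, Slc4a1, Hemgn and Rhag. Gata1, a transcription factor of red cell and megakaryocyte precursors, had 0 counts in D, 125 in B and 20 in C. Klf1, the activator of adult beta globin, had 5 counts in D, 1 in B and 15 in C. Klf1 thus did not share the order of the summed globins and was highest in C, but its level, at most 1.63 TPM, was near the limit of detection. Of the 9 erythroid markers, 5 had their highest CPM in B and 2 in C.

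Of 10 erythroid transcription factors, Ldb1 and Lmo2 were detected in every library and 8 of the 10 had their lowest CPM in D, against 31.6% of all genes tested. Ldb1, a bridging cofactor, stood at 15.7 TPM in D, 16.8 in B and 13.9 in C, and Lmo2, its partner, at 2.16 TPM in D, 3.33 in B and 3.77 in C. Neither is restricted to red cells. Of 5 factors linked to globin switching, Zbtb7a, Sox6 and Bcl11a were detected and none of the 5 was lowest in D in CPM. Zbtb7a stood at 4.33 TPM in D, 1.99 in B and 3.92 in C. Sox6 stood at 6.76 TPM in D, 1.45 in B and 1.58 in C, and Bcl11a at 2.12 TPM in D, 1.51 in B and 1.68 in C. Sox6 and Bcl11a are known as repressors of embryonic globins in red cells and are also made in the nervous system.

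The haem synthesis genes as a list, most of which all cells use, did not share in TPM the order of libraries seen for the globins. Of 9 haem synthesis genes, 8 were detected in every library, Alas2 being the exception, and the list summed to 368 TPM in D, 330 in B and 321 in C. Urod stood at 97.9 TPM in D, 116 in B and 95.2 in C, and Alad at 62.1 TPM in D, 67.3 in B and 54.7 in C. Both enzymes were highest in B and lowest in C in TPM, but in CPM both had the order of the globins. Urod stood at 93.3 CPM in D, 150 in B and 127 in C, and Alad at 42.7 CPM in D, 62.9 in B and 52.6 in C. Of the 9 haem synthesis genes, 3 had their lowest CPM in D, against 31.6% of all genes tested. Of 16 red cell membrane genes, 6 were detected, led by Add2 at 109 TPM in D, 72.9 in B and 64.6 in C. Add2 codes for a membrane skeleton protein that neurons also make. Dmtn stood at 19.9 TPM in D, 22.2 in B and 36.0 in C, Gypc at 26.4 TPM in D, 14.7 in B and 9.51 in C, and Icam4 had no count. Of 10 genes for iron and haemoglobin handling in the tables, 8 were detected, and the list summed to 1350 TPM in D, 1841 in B and 1571 in C. The peroxide-removing enzyme Prdx2 made up most of it, with 1181 TPM in D, 1672 in B and 1417 in C, followed by Bpgm and Slc25a38.

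Markers of other cell types were counted in the same libraries. Of 7 megakaryocyte and platelet markers, 5 were detected and 6 had their lowest CPM in D, against 31.6% of all genes tested. In CPM 7 were highest in B, and the share of all genes highest in B is not given here. Their sum was 41.8 TPM in D, 1524 in B and 348 in C, which is 36.5-fold lower in D than in B and 8.33-fold lower in D than in C. Pf4, a platelet chemokine, stood at 28.1 TPM in D, 1216 in B and 269 in C. Ppbp, another platelet chemokine, stood at 4.93 TPM in D, 190 in B and 49.3 in C, and Gp9, a subunit of the platelet receptor for von Willebrand factor, at 2.08 TPM in D, 97.8 in B and 21.4 in C. The sum of these markers had the same order of libraries as the embryonic globins, with a wider range. Itgb3 was the exception and lowest in C, with 9.59 CPM in D, 14.1 in B and 3.09 in C. Gp6 was at 0 in D. The part of these markers in the globin result was not tested.

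The remaining marker lists varied less. The 10 macrophage markers summed to 50.4 TPM in D, 109 in B and 67.0 in C. This sum does not speak for each marker. Of the 10, 5 had their lowest CPM in D, against 31.6% of all genes tested. Csf1r, Cx3cr1, Adgre1 and Ptprc had their highest CPM in D, with Csf1r at 4.29 CPM in D, 1.05 in B and 0.77 in C. The 8 endothelium markers summed to 5.86 TPM in D, 17.1 in B and 4.79 in C. The 8 neuron markers, all detected, summed to 20301 TPM in D, 31346 in B and 23811 in C. The 8 glia and Schwann cell precursor markers, all detected, summed to 4775 TPM in D, 3052 in B and 1514 in C. Tubb3, a neuronal tubulin that led the neuron list, stood at 9265 TPM in D, 17901 in B and 9716 in C, so neuron markers were abundant in each library. The list did not move as a whole. Of the 8 neuron markers, 5 had their lowest CPM in D, while Elavl4, Pou4f1 and Snap25 had theirs in C. Pou4f1 stood at 695 TPM in D, 217 in B and 118 in C. The glia sum was highest in D, where the globins were lowest, and its part in the globin result was not tested.

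**Figure D5:**
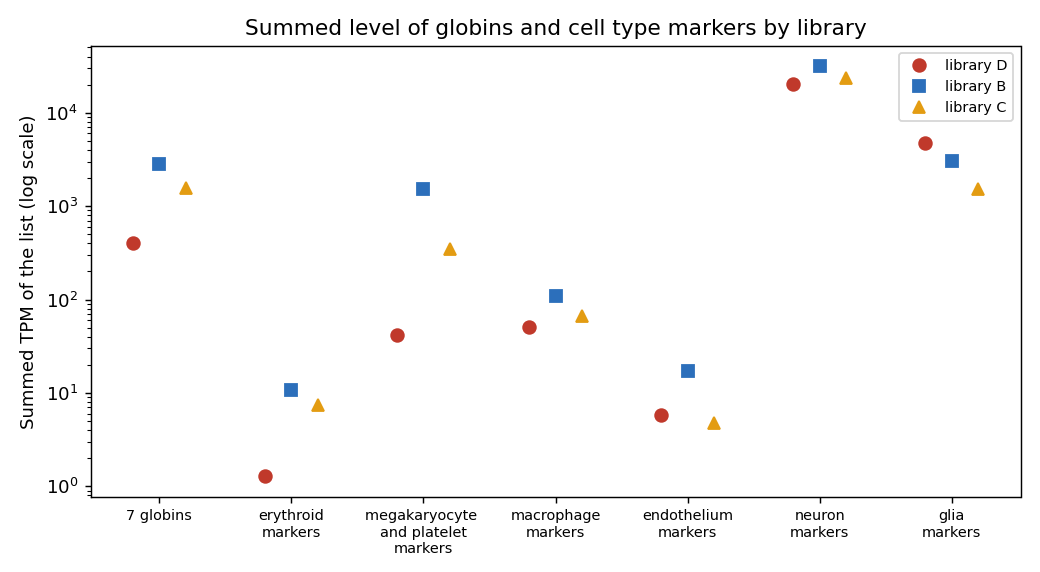
Summed level of the 7 globins and of each cell type marker list in libraries D, B and C, on a log axis of TPM. The megakaryocyte and platelet sum spans 41.8 TPM in D to 1524 TPM in B, in the same order of libraries as the globins, while the neuron sum lies between 20301 and 31346 TPM.

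The genes most like the summed globins were sought by their 2 log2 ratios, D over B and D over C, among 14535 genes whose count averaged at least 10. The summed globins had ratios of -3.26 for D over B and -2.43 for D over C. Among the 5 nearest genes were Ak8 at a distance of 0.27, Plcxd1 at 0.31, Bin2 at 0.33 and Gm12676 at 0.35. Of these 4, all but Bin2 had at most 34 counts in any library. Bin2 had 28 counts in D, 244 in B and 112 in C. Hbb-y itself lay at 0.03, but it holds 70.5% of the globin counts in D, 69.5% in B and 69.3% in C. Its closeness to the sum was therefore fixed in advance and sets no standard for other genes. As close as Hbb-bs, at 3.07, were 2600 other genes (17.9%). A likeness over 3 libraries is a description and carries no test.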

How the data were processed

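RNA sequencing of sorted DRG cells in 3 libraries was analysed. For 41388 Ensembl genes of each library the authors deposited a read count, a CPM and an RPKM, per the file headers. The deposited counts were used, and the deposited CPM and RPKM only for checks: both follow from the deposited count, file total and length. Subread, featureCounts 1.4.5 and GRCm38.p2 appear in the submitters' processing notes without roles. Not given in the sources used here are the annotation release, the strand setting and the treatment of multiply matching reads. Per the labels' protocols, the RNA was amplified with a SMARTer low-input kit, and such cDNA carries no strand mark.

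Symbols were matched for 40254 identifiers. TPM came from count and length over all genes. Fits used edgeR 4.0.16 (TMM, filterByExpr, quasi-likelihood, Benjamini-Hochberg threshold 0.05) and, as an alternative, DESeq2 1.42.0, in R 4.3.3, after a test on simulated data. An adjusted p that DESeq2 did not give stayed missing. Standard errors of edgeR differences are approximate, taken from the difference and its F statistic. Ratios, intervals and sequence comparisons used Python 3.11.15, scipy 1.17.1 and biopython 1.88. Other settings were lower and higher detection limits, CPM in place of TPM, 50-base stretches unique to a globin, no filter on low counts, and each library left out.

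The 9 genes and the gene lists were chosen with earlier results of these data known. All 9 are named, with the 3 members of highest mean TPM in each pathway list, any without a count, and the 5 genes nearest the summed globins. The markers at 0 in D, Klf1, Tubb3, Fech, Tfrc and the platelet genes were singled out after their values were seen. So were the macrophage markers and the other neuron markers named. Results for some genes that these rules name are left out of the text.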

Additional observations from a re-analysis of the deposited data

How the results depend on the processing

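Of 80 recomputed values, 52 were classed as the same, 14 passed a threshold they had missed, 13 moved and 1 reversed. The same means a kept direction and like size for ratios and for single genes with a library left out. For single genes in other fits it means a kept direction and call, and for counts of genes a like count. With lengths cut to 50-base stretches found in no other globin of the set, the log2 ratio of embryonic over adult level was 1.49, that within the beta-like cluster 2.93, that of alpha-like over beta-like -1.54, and the alpha-like embryonic over adult ratio reversed to -0.81; this setting assumes that reads in shared stretches were not counted, which was not tested. With CPM in place of TPM, the alpha-like over beta-like ratio was -2.15 and that of Alas2 and Slc4a1 over the globins -7.58. For D against B and C, 0 of the 9 genes passed in edgeR, 7 passed with no filter on low counts (a setting that called 1534 of 23553 genes) and 7 with DESeq2 (690 of 11715 genes); for C against D and B, 1 passed in edgeR and 0 in DESeq2, and the cause was not tested. In 43 of 43 recomputed differences for D, the direction stayed lower. This was fixed in advance, since all 9 genes have their lowest CPM in D and the same counts were reused. It is no separate support. Without library B, the log2 difference of D over C was -1.62 for Hba-x, -2.85 for Hba-a1, -2.41 for Hbb-y and -1.66 for Hbb-bh1, and without library C that of D over B was -3.23 for Hbb-bs; these have no test. Detected genes numbered 8 at a limit of 0.5 TPM and 5 at 5 TPM. No paired analysis was possible because the libraries form 1 group. Depth limits Slc4a1, Alas2 and the adult globins in D, which rest on 45 counts or fewer each.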

Other observations

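Globin genes outside the developmental clusters' main members were near the limit of detection. Cygb, a cytoglobin made in many tissues, had 15 counts in D, 24 in B and 38 in C. Ngb, the neuronal globin, had 1 count in D, 26 in B and 6 in C. Hbb-bh0 had 1 count in D, 2 in B and 3 in C, reached 1 TPM in each library because of its short listed length, and is not distinguishable from 0 at this depth. Mb, the oxygen store of muscle, had 9 counts in D, 3 in B and 0 in C, and Hbb-bh2 had no count.

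Fech, the enzyme that inserts iron into the haem ring, stood at 19.0 TPM in D, 7.80 in B and 32.0 in C. It was highest in C, as the adult beta genes were, but lowest in B, where they were lowest in D. Of the 9 haem synthesis genes, 2 had their highest CPM in C, and the share of all genes highest in C is not given here. Tfrc, the transferrin receptor through which red cell precursors take up iron, stood at 25.0 TPM in D, 6.38 in B and 8.06 in C, highest where the globins were lowest.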
